A study of Homo sapiens with 24 samples.

Results

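ERBB receptors, their ligands and the receptor-binding adaptor GRB7 were followed in breast cancer cells treated with a CDK4/6 inhibitor. The set was fixed by name and comprised 10 of the 59609 genes in the counts table: the receptors EGFR, ERBB2, ERBB3 and ERBB4, the ligands AREG, EREG, HBEGF, TGFA and NRG1, and GRB7. Transcripts were measured by 3′ RNA-seq in 24 libraries from MDA-MB-231, a mesenchymal line grown in RPMI, and MDA-MB-453, a luminal line grown in DMEM. Both lines are, by the study's account, negative for the oestrogen receptor. Each line received DMSO, abemaciclib at 500 nM (an inhibitor of CDK4 and CDK6), fulvestrant at 5 nM (a degrader of the oestrogen receptor) or the combination of both drugs for 5 days, with n = 3 libraries in each of the 8 groups. Replicates were, by the study's methods, independent biological samples of an experiment performed once, so that p-values cover the spread within that experiment. Each line had its own medium, so that line and medium cannot be told apart.

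The ERBB family consists of receptor tyrosine kinases that act as dimers at the cell surface. EGFR binds AREG, EREG, HBEGF and TGFA, whereas ERBB3 and ERBB4 bind the neuregulins, of which NRG1 is one. ERBB2 has no known ligand and acts as the partner of the other receptors, and ERBB3 has little kinase activity of its own. GRB7 is an adaptor that binds activated ERBB2 and ERBB3, and its gene lies beside ERBB2 in the region of chromosome 17 that is amplified in HER2-positive breast cancer.

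Library totals ran from 2873558 to 4158762 counts. Levels are given as counts-per-million (CPM) of the library total, and because a 3′ library yields about a read per transcript they were not divided by length. Log2 fold changes are given ± the standard error from models with TMM scaling of the libraries, and calls were made where the 2-sided quasi-likelihood p of edgeR, adjusted by Benjamini-Hochberg across every gene tested, was below 0.05. VIM and CD44, markers of the mesenchymal line, were at 0 in every MDA-MB-453 library (n = 12). Of the markers of other cells, the leukocyte gene PTPRC did not exceed 0.292 CPM and the endothelial gene PECAM1 did not exceed 2.47 CPM, whereas COL1A1, a fibroblast collagen, averaged 39.4 CPM in MDA-MB-453 and, in the other line, 5.67 CPM under DMSO. COL1A1 was lower with abemaciclib in MDA-MB-453 in both comparisons (log2 fold changes -1.01 and -0.93), and its part in the results for that line was not tested. Abemaciclib lowered MKI67, a marker of dividing cells, from a mean of 516 to 189 CPM in MDA-MB-231, while the fall in MDA-MB-453 was from 276 to 1.63 CPM. The mitochondrial share of counts was 8.69 to 9.24% without abemaciclib and 11.1 to 14% with it in MDA-MB-231, and 13.3 to 16% and 20.8 to 25.5% in MDA-MB-453.

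The 2 lines differed in their main receptors, and the ligand transcripts lay almost wholly in MDA-MB-231. EGFR contributed 92.6% ± 0.208 (SD, n = 3) of the ERBB receptor counts in MDA-MB-231 under DMSO, and ERBB2 the remaining 7.46% ± 0.197. In MDA-MB-453, ERBB2 contributed 58.4% ± 3.80, ERBB3 41.1% ± 3.89 and EGFR 0.44% ± 0.154. The 5 ligands summed to between 185 and 200 CPM in the MDA-MB-231 DMSO libraries and to between 1.64 and 4.71 CPM in those of MDA-MB-453.

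**Figure D1:**
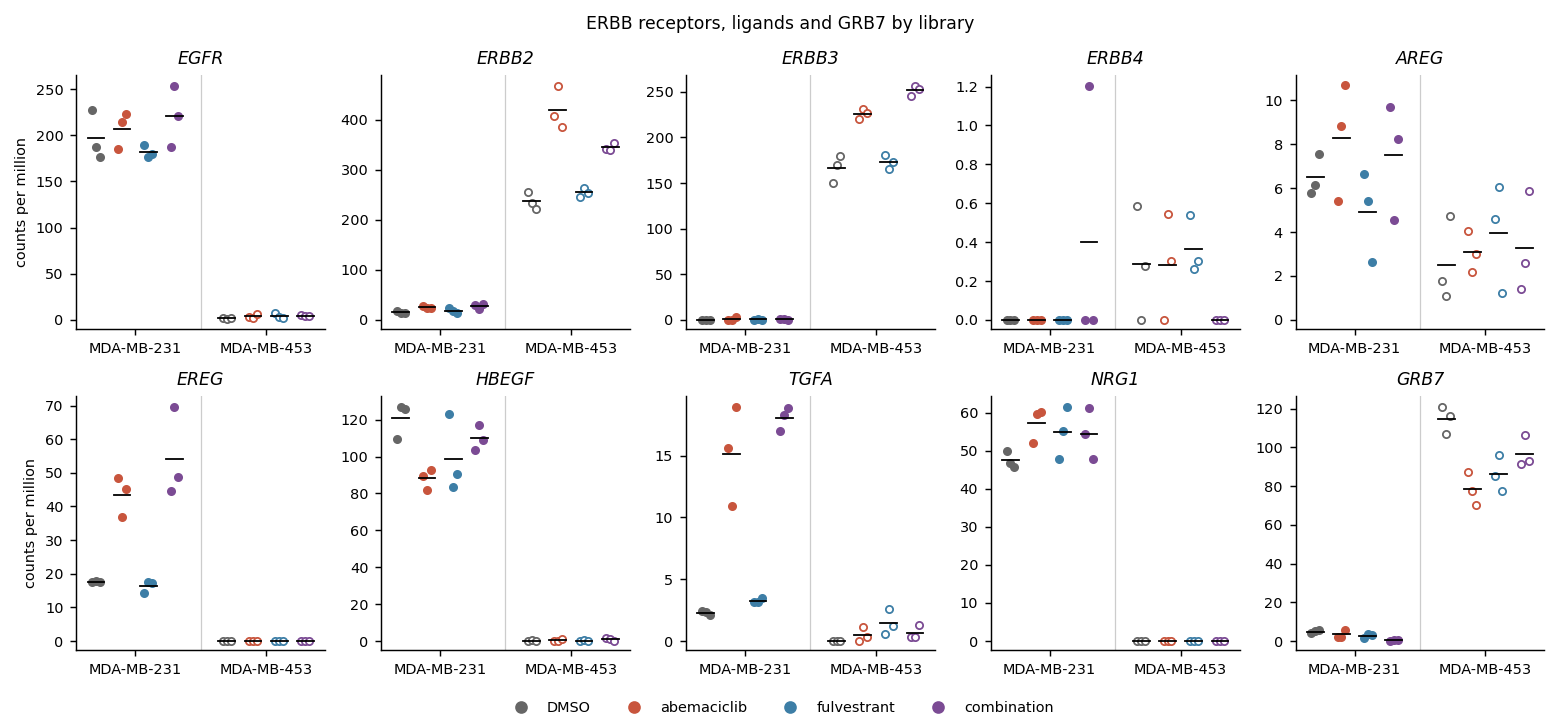
Level of each of the 10 genes, in CPM, in the 24 libraries (filled points, MDA-MB-231; open points, MDA-MB-453; lines, group means, n = 3). EGFR and the ligands EREG, HBEGF and NRG1 sat near 0 in MDA-MB-453, ERBB3 sat near 0 in MDA-MB-231, and EREG and TGFA stood higher in the 6 MDA-MB-231 libraries that received abemaciclib than in the 6 that did not.

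Between the DMSO groups, 69.8% of the 12750 genes tested were called, as were the 9 members that passed the filter on low counts. ERBB4 did not pass. In the fits of single lines, ERBB3 did not pass in MDA-MB-231, nor did EREG, HBEGF, TGFA and NRG1 in MDA-MB-453. These genes were tested here only through the line where they are high. Their calls therefore add no support, and the count of 9 is not comparable with the share of all genes. EGFR, the receptor for most of these ligands, measured 228, 188 and 177 CPM in the MDA-MB-231 DMSO libraries and 2.34, 1.09 and 1.94 CPM in those of MDA-MB-453. It was 104-fold lower in MDA-MB-453 (log2 fold change -6.70 ± 0.26, adjusted p = 7.21e-28). ERBB2 measured 18.6, 14.6 and 14.5 CPM in MDA-MB-231 against 256, 234 and 222 CPM in MDA-MB-453, a 15.6-fold difference (3.96 ± 0.14, adjusted p = 7.9e-29). GRB7 went the same way, from 4.27, 4.96 and 5.45 CPM to 121, 107 and 116 CPM (4.60 ± 0.21, adjusted p = 3.03e-24). None of these groups overlapped.

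ERBB3 had 0 counts in the 3 MDA-MB-231 DMSO libraries and 150, 170 and 180 CPM in MDA-MB-453, which placed it at least 557-fold higher there, with the zeros set at 3 counts over the group. Among the ligands, NRG1 measured 50.0, 46.7 and 45.8 CPM in MDA-MB-231 and was at least 169-fold lower in MDA-MB-453. EREG, at 17.7, 17.8 and 17.6 CPM in MDA-MB-231, was at least 63-fold lower in MDA-MB-453. Neither NRG1 nor EREG had a single count in any of the 12 MDA-MB-453 libraries, which allows a level of up to 0.0702 CPM for each over the line. These bounds and intervals cover counting error only.

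HBEGF, the most abundant of the 5 ligands in MDA-MB-231 at 109, 127 and 126 CPM, summed to 1209 counts there and to 2 counts in MDA-MB-453, a ratio of 646 (95% counting interval 178 to 5340). TGFA measured 2.44, 2.34 and 2.12 CPM in MDA-MB-231 and had 0 counts in MDA-MB-453 under DMSO, at least 8.19-fold lower. AREG was the ligand closest in level between the lines, at 5.79, 6.13 and 7.57 CPM in MDA-MB-231 and 1.75, 1.09 and 4.71 CPM in MDA-MB-453 (-1.28 ± 0.54, adjusted p = 0.0315). That call was lost without replicate 3 of MDA-MB-231 DMSO (adjusted p = 0.081) or without replicate 1 or 2 of MDA-MB-453 DMSO (adjusted p = 0.108 and 0.142). ERBB4 was near the floor in both lines, with 5 counts in 1 MDA-MB-231 library and 10 counts in all over the MDA-MB-453 libraries.

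The ligand genes also differ in their surroundings and in the sequence before their start. EREG (chr4:74365145-74388749, plus strand) and AREG (chr4:74445136-74455005, plus strand) are neighbours, 56.4 kb apart, whereas HBEGF lies at chr5:140332843-140346603 (minus strand) and TGFA at chr2:70447284-70554193 (minus strand), all from GENCODE version 44 on GRCh38. The 250 bases before the RefSeq start are shown for EREG, AREG and HBEGF because under abemaciclib, as described below, the first rose, the second was not called and the third fell (GRCh38.p14, 5′ to 3′ on each gene's strand). Windows for 7 of the 10 members were found in the RefSeq table. Capitals mark every match, on either strand, to a TATA box (the letters TATAAA), a GC box (GGGCGG) or the CCAAT box, which is spelled by its name. An AP-1 site (TGANTCA) was searched as well. No match overlapped one of a different motif, and 2 of the HBEGF GC boxes share a base.
EREG: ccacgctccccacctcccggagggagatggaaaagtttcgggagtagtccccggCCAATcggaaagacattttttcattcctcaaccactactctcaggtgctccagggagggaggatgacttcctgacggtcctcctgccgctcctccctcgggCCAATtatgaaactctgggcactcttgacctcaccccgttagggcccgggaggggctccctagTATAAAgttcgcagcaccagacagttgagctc
AREG: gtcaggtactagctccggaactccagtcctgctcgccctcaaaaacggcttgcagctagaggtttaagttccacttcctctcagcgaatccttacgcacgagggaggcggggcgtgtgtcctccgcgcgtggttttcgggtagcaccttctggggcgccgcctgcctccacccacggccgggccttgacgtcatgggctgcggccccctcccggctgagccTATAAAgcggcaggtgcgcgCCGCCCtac
HBEGF: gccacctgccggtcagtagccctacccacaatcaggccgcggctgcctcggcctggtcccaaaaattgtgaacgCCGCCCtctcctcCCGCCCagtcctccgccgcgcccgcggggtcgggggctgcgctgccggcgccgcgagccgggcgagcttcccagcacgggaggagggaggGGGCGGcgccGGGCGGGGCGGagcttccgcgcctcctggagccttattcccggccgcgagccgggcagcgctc
The windows are chr4:74364895-74365144 for EREG, chr4:74444886-74445135 for AREG and chr5:140346604-140346853 for HBEGF. EREG and AREG each held TATAAA, starting 32 and 29 bases before the start, a motif found in 10.7% of the 35114 promoter windows of this length. HBEGF held no TATAAA and 5 GC boxes, a motif present in 42.6% of windows, and AREG held 1. EREG held 2 CCAAT boxes, found at least once in 32% of windows, and none of the 3 held the AP-1 motif, found in 6.57%. TGFA, which rose as well, is not shown. Its window at chr2:70553827-70554076 held no TATAAA and 3 GC boxes, and its window at chr2:70553447-70553696 held no match to any motif. A match is a description of the letters and not a mapped site, and any link between motifs and response was not tested.

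In MDA-MB-231, abemaciclib raised TGFA, EREG and ERBB2 and lowered HBEGF. Between abemaciclib and DMSO the calls took in 33.7% of the 11314 genes tested, and 4 of the 8 members tested were called; ERBB3 and ERBB4 did not pass the filter. The comparison of the combination with fulvestrant, which shares no library with the first, called 36.1% of genes and again 4 of the 8 members. Counts are relative within each library, so that in these bulk samples a change in the cells present and a change in RNA per cell cannot be told apart.

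TGFA, transforming growth factor alpha, had the smallest adjusted p of the members for abemaciclib against DMSO. It measured 2.44, 2.34 and 2.12 CPM under DMSO and 15.6, 10.9 and 18.9 CPM under abemaciclib, a 6.53-fold rise (log2 fold change 2.71 ± 0.37, adjusted p = 1.15e-07). With fulvestrant it measured 3.18, 3.13 and 3.51 CPM, and with the combination 17.0, 18.3 and 18.8 CPM, a 5.43-fold rise (2.44 ± 0.34, adjusted p = 1.83e-07). Every library with abemaciclib lay above every library without it. The levels under DMSO rested on 7 or 8 counts per library.

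EREG, epiregulin, rose from 17.7, 17.8 and 17.6 CPM under DMSO to 48.5, 36.8 and 45.2 CPM under abemaciclib (1.30 ± 0.20, adjusted p = 1.14e-06). From 14.2, 17.6 and 17.2 CPM under fulvestrant it rose to 44.5, 69.5 and 48.7 CPM under the combination, a 3.29-fold change (1.72 ± 0.20, adjusted p = 1.67e-09). Groups with and without the drug did not overlap in either comparison. AREG, amphiregulin, whose gene is the neighbour of EREG, measured 5.79, 6.13 and 7.57 CPM under DMSO and 5.39, 8.81 and 10.7 CPM under abemaciclib, and was not called (0.35, 95% interval -0.47 to 1.17, adjusted p = 0.545). The combination left AREG at 9.70, 4.57 and 8.25 CPM against 6.64, 5.399 and 2.63 CPM under fulvestrant (0.60, -0.24 to 1.44, adjusted p = 0.274). AREG rested on 9 to 39 counts per library, and the difference between AREG and EREG was not tested.

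HBEGF, heparin-binding EGF-like growth factor, fell by 0.45 on the log2 scale with abemaciclib, from 109, 127 and 126 CPM to 89.7, 82.0 and 92.9 CPM (SE 0.13, adjusted p = 0.00494). In the presence of fulvestrant it was not called, at 104, 117 and 109 CPM under the combination against 123, 83.3 and 90.3 CPM under fulvestrant (0.14 ± 0.13, adjusted p = 0.395). The difference between these effects was 0.60 ± 0.18 and was not called (adjusted p = 0.134). The lack of a call depended on the first fulvestrant library. Without that library the difference was 0.78 (adjusted p = 0.00242), and the combination then exceeded fulvestrant by 0.33 (adjusted p = 0.0407). NRG1, neuregulin 1, measured 50.0, 46.7 and 45.8 CPM under DMSO and 52.0, 59.6 and 60.3 CPM under abemaciclib. These groups did not overlap, but the change of 0.27 ± 0.15 did not pass the threshold (adjusted p = 0.165), and with fulvestrant present it was -0.02 ± 0.15 (adjusted p = 0.936).

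**Figure D2:**
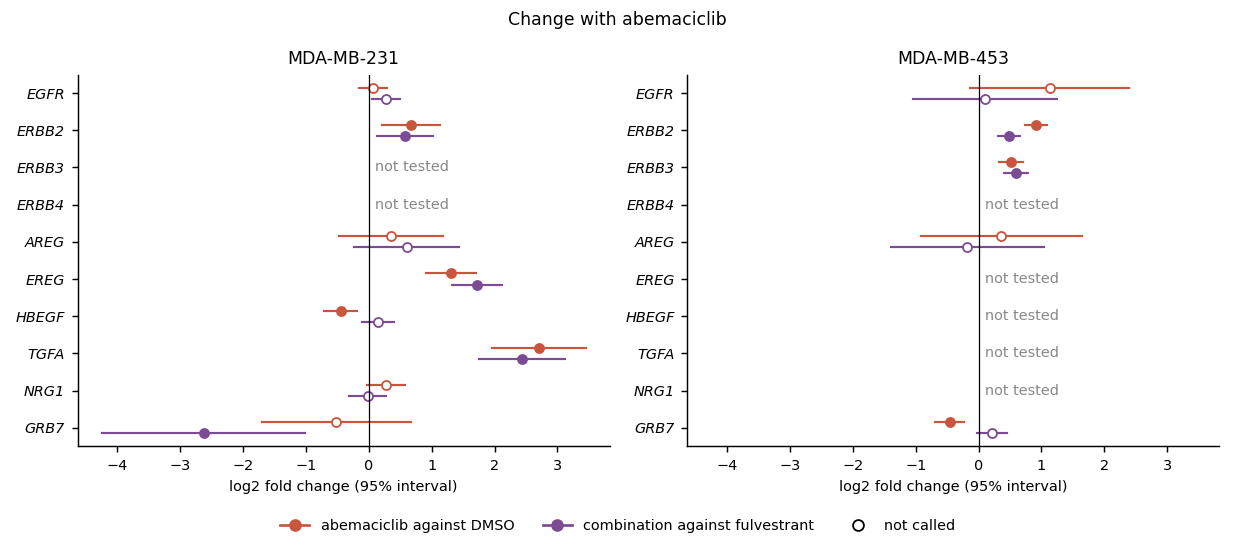
Log2 fold change of each member with abemaciclib in the absence (orange) and presence (purple) of fulvestrant, with 95% intervals; filled points were called at an adjusted p below 0.05. TGFA and EREG lay to the right of 0 in both comparisons in MDA-MB-231, as did ERBB2 and ERBB3 in MDA-MB-453, and HBEGF in MDA-MB-231 and GRB7 in MDA-MB-453 lay to the left in the absence of fulvestrant only, with no call in its presence.

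The make-up of the ligand pool in MDA-MB-231 shifted accordingly. Under DMSO, HBEGF supplied 61.9% ± 2.54 of the counts of the 5 ligands, NRG1 24.5% ± 2.20, EREG 9.10% ± 0.387 and TGFA 1.19% ± 0.126. Under abemaciclib these shares were 41.5% ± 0.907, 27.0% ± 2.80, 20.5% ± 2.27 and 7.07% ± 1.41. Under fulvestrant they were 55.1% ± 6.95, 31.1% ± 5.66, 9.27% ± 1.79 and 1.84% ± 0.191, and under the combination 45.1% ± 1.75, 22.3% ± 1.57, 22.0% ± 3.29 and 7.41% ± 0.665. The summed level of the 5 ligands ranged from 165 to 200 CPM in the 6 libraries without abemaciclib and from 198 to 271 CPM in the 6 with it. Shares and sums are given as descriptions, without a test.

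**Figure D3:**
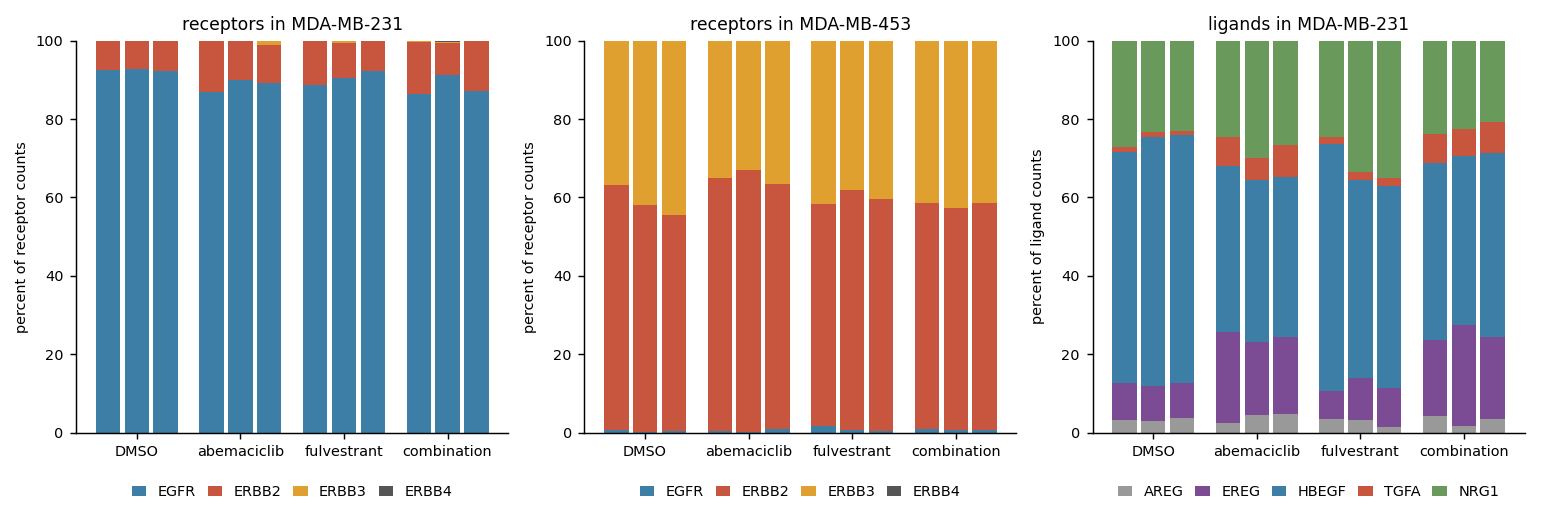
Share of each gene, in percent of the summed counts of the receptors or of the ligands, in each library (bars in replicate order within a treatment). EGFR made up most of the receptor counts in MDA-MB-231 and ERBB2 and ERBB3 nearly all of them in MDA-MB-453; the HBEGF share of ligand counts in MDA-MB-231 lay between 40.7 and 42.5% with abemaciclib and between 59 and 63.5% with DMSO.

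Among the receptors of MDA-MB-231, ERBB2 was called in both comparisons and EGFR in neither. EGFR (chr7:55019017-55211628) measured 228, 188 and 177 CPM under DMSO and 185, 214 and 223 CPM under abemaciclib, with overlapping groups (0.07, 95% interval -0.15 to 0.30, adjusted p = 0.661). It measured 190, 176 and 180 CPM under fulvestrant and 188, 253 and 221 CPM under the combination (0.27, 0.05 to 0.49, adjusted p = 0.0514). This second value passed the threshold in 5 of the alternatives, with adjusted p from 0.0155 to 0.0422. No pair of neighbours in its order of mean levels (combination, abemaciclib, DMSO, fulvestrant) differed beyond the larger SD.

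ERBB2 (chr17:39687914-39730426) rose from 18.6, 14.6 and 14.5 CPM under DMSO to 28.1, 23.4 and 24.4 CPM under abemaciclib (0.67 ± 0.23, adjusted p = 0.0191), without overlap. It measured 24.0, 17.0 and 14.6 CPM under fulvestrant and 28.8, 22.6 and 32.2 CPM under the combination, where the groups overlapped (0.58 ± 0.22, adjusted p = 0.036). Both calls were lost when single libraries were left out: the first without DMSO replicate 2 or 3 or abemaciclib replicate 1 (adjusted p = 0.0682, 0.0673 and 0.0859), the second without fulvestrant replicate 2 or 3 or combination replicate 1 or 3 (adjusted p = 0.108, 0.153, 0.0893 and 0.169) and with DESeq2 (adjusted p = 0.0629). ERBB3 summed to 0 counts under DMSO, 11 under abemaciclib, 5 under fulvestrant and 6 under the combination, and 10 of the 11 counts came from abemaciclib replicate 3. GRB7 was scarce in MDA-MB-231, at 14, 17 and 18 counts under DMSO and 8, 7 and 21 under abemaciclib (log2 fold change -0.52 ± 0.59, adjusted p = 0.536). It had 6, 12 and 11 counts under fulvestrant and 0, 2 and 3 under the combination (-2.63 ± 0.80, adjusted p = 0.00854), a call that was lost without combination replicate 1, the library at 0 (-2.11, adjusted p = 0.0521).

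Fulvestrant alone called 0% of genes in MDA-MB-231 with edgeR, as it did with DESeq2, although 799 genes had an unadjusted p below 0.05 and 205 were called without fulvestrant replicate 1. HBEGF was the 1 member among them (-0.28 ± 0.13, adjusted p = 0.643). Without fulvestrant replicate 1 its value was -0.47 (adjusted p = 0.0387). Between the combination and abemaciclib, edgeR called 0.0265% of genes and 0 of the 8 members, and for the interaction 0.124% of genes and 0 members. DESeq2 called 75 and 127 genes in these comparisons, and again 0 members. In each of these comparisons with edgeR, HBEGF and GRB7 were the 2 members with an unadjusted p below 0.05. For GRB7 the combination was lower than abemaciclib by a log2 fold change of -2.91 ± 0.79 (adjusted p = 0.137).

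In MDA-MB-453, abemaciclib raised the 2 abundant receptors and lowered the adaptor. The calls between abemaciclib and DMSO took in 36% of the 11080 genes tested, and 3 of the 5 members tested were called; the filter removed ERBB4 and the 4 ligands other than AREG. In the comparison of the combination with fulvestrant, 36.6% of genes and 2 of the 5 members were called.

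ERBB2 rose from 256, 234 and 222 CPM under DMSO to 407, 468 and 386 CPM under abemaciclib, a 1.88-fold change (0.91 ± 0.09, adjusted p = 1e-11). It measured 246, 265 and 254 CPM under fulvestrant and 342, 340 and 353 CPM under the combination, a 1.40-fold change (0.49 ± 0.09, adjusted p = 1.62e-05). No group with abemaciclib overlapped a group without it. The combination stood below abemaciclib alone (-0.38 ± 0.09, adjusted p = 0.00916), in a comparison that called 2.46% of genes and 1 of the 5 members. The effect of abemaciclib was smaller with fulvestrant than without it by 0.42 on the log2 scale (-0.42 ± 0.12, adjusted p = 0.0431), in a test of the interaction that called 3.8% of genes and 2 of the 5 members. That interaction passed the threshold narrowly and was lost in 9 of the 12 fits that left out a library, where adjusted p rose to as much as 0.193. Without abemaciclib replicate 2, the highest of the 12 libraries for ERBB2, the combination was no longer called against abemaciclib (-0.28, adjusted p = 0.15), nor was it without combination replicate 1 or 2 (adjusted p = 0.0551 and 0.0891).

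ERBB3 (chr12:56076799-56103505), the neuregulin receptor that pairs with ERBB2, rose from 150, 170 and 180 CPM under DMSO to a mean of 226 ± 5.19 CPM (SD, n = 3) under abemaciclib, with 221 CPM in the lowest library (0.52 ± 0.10, adjusted p = 1.67e-05). It rose from 180, 165 and 173 CPM under fulvestrant to 245, 256 and 253 CPM under the combination (0.59 ± 0.09, adjusted p = 1.64e-06). The 6 libraries with abemaciclib all lay above the 6 without it, and the interaction of 0.07 (95% interval -0.20 to 0.34, adjusted p = 0.856) was not called. The summed level of the 4 receptors was 404 to 434 CPM without abemaciclib and 592 to 702 CPM with it. ERBB2 made up 64.5% ± 2.20 of receptor counts under abemaciclib and 57.5% ± 0.666 under the combination, and ERBB3 34.8% ± 1.86 and 41.9% ± 0.723. EGFR stayed between 4 and 28 counts per library and was called in none of the 5 comparisons within the line; its value for abemaciclib was 1.13 with a 95% interval of -0.13 to 2.39, so that a rise could not be told from none at this depth.

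GRB7 (chr17:39737927-39747291) begins 7.5 kb beyond the end of ERBB2 but moved the other way. It fell from 121, 107 and 116 CPM under DMSO to 87.6, 77.7 and 70.3 CPM under abemaciclib (-0.46 ± 0.12, adjusted p = 0.00157). Fulvestrant also lowered GRB7, to 85.05, 96.1 and 77.3 CPM (-0.47 ± 0.12, adjusted p = 0.0318), the 1 member among the 1.41% of genes called for that drug. This fulvestrant call was lost in 5 of the 6 fits that left out a library of the 2 groups, all but the one without fulvestrant replicate 3, with adjusted p from 0.0585 to 0.196. Under the combination GRB7 measured 91.2, 106 and 93.0 CPM, which was not called against fulvestrant (0.22 ± 0.12, adjusted p = 0.149), and the interaction was 0.68 ± 0.17 (adjusted p = 0.0124). The interaction was lost without abemaciclib replicate 3 (0.62, adjusted p = 0.0515) or combination replicate 2 (0.60, adjusted p = 0.0659).

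The number of ERBB2 counts per GRB7 count was 2.12, 2.19 and 1.92 under DMSO, 4.65, 6.02 and 5.49 under abemaciclib, 2.89, 2.75 and 3.29 under fulvestrant and 3.75, 3.20 and 3.80 under the combination. All 3 abemaciclib libraries lay above the other 9, and the fulvestrant and combination groups overlapped.

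**Figure D4:**
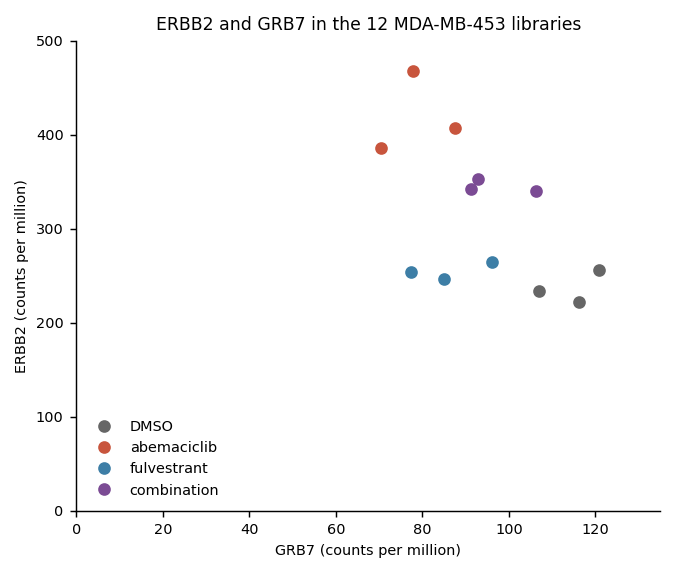
ERBB2 against GRB7, both in CPM, in the 12 MDA-MB-453 libraries, coloured by treatment. The abemaciclib libraries had the 3 highest ERBB2 levels, at 386 to 468, with GRB7 at 70.3 to 87.6, whereas the DMSO libraries had GRB7 at 107 to 121 and ERBB2 at 222 to 256.

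Ligand transcripts in MDA-MB-453 stayed at or near the floor under every treatment. AREG, the 1 ligand tested there, had 4 to 23 counts per library and was called in none of the comparisons within the line; its abemaciclib value was 0.36 (95% interval -0.92 to 1.64). HBEGF summed to 2, 5, 2 and 10 counts under DMSO, abemaciclib, fulvestrant and the combination, and TGFA to 0, 5, 16 and 7. For TGFA, 10 of the 16 fulvestrant counts came from 1 library.

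The abemaciclib responses of the lines were then compared in a model of all 24 libraries. For abemaciclib against DMSO, 20.7% of genes and 1 of the 9 members were called between lines, and for the combination against fulvestrant 18.1% of genes and 2 of the 9. The 9 include EREG and NRG1, which could not be called, and ERBB3, HBEGF and TGFA, which passed the filter through 1 line only. These counts are therefore not comparable with the shares of all genes, and calls for ERBB3 and TGFA add no support for a difference between lines. ERBB2, counted in every library of both lines, was not called for a difference in its response (MDA-MB-453 minus MDA-MB-231, 0.25, 95% interval -0.16 to 0.65, adjusted p = 0.457). With fulvestrant present the difference was -0.08 (-0.47 to 0.30, adjusted p = 0.876). The first interval reaches nearly to the MDA-MB-231 rise of 0.67, so a sizeable difference could not be told from none. TGFA differed in its response to the combination (-3.47 ± 0.86, adjusted p = 0.00236): it rose in MDA-MB-231, whereas MDA-MB-453 had 16 counts under fulvestrant and 7 under the combination, near the floor. The call was lost without MDA-MB-453 fulvestrant replicate 2 (-2.77, adjusted p = 0.0606). For GRB7 the difference was 2.85 ± 0.60 with fulvestrant present (adjusted p = 0.000339) and 0.05 ± 0.35 in its absence (adjusted p = 1). The first set a value of 0.22 in MDA-MB-453, which was not called, against the MDA-MB-231 fall of -2.63. That fall rested on 0, 2 and 3 counts under the combination and was lost without the library at 0. The ERBB3 difference of -4.39 ± 1.45 (adjusted p = 0.0247) set a fold in MDA-MB-231 that starts from 0 counts against the rise in MDA-MB-453; without the library holding 10 of the counts, MDA-MB-231 abemaciclib replicate 3, it was -1.86 (adjusted p = 0.461). It was lost as well without any of the 3 MDA-MB-231 DMSO libraries, with adjusted p from 0.0594 to 0.0623. EREG and NRG1 have no counts in MDA-MB-453 and gave no estimate.

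Genes around ERBB2 on chromosome 17 were examined because this stretch is often gained as a block; copy number was not measured. Of 14 listed neighbours, 8 were tested between the DMSO groups and 7 were called, where 69.8% of all genes were. PGAP3, a lipid remodelling enzyme of GPI-anchored proteins, was 3.10 ± 0.34 higher on the log2 scale in MDA-MB-453 (adjusted p = 4.8e-11), FBXL20 2.01 ± 0.31, MIEN1 1.85 ± 0.13, ORMDL3 1.38 ± 0.19 and STARD3 0.96 ± 0.13. MED1 (-0.54 ± 0.11) and CDK12 (-0.85 ± 0.12), which lie between FBXL20 and STARD3, were lower, and TCAP was not called (adjusted p = 0.171). The other 6 (NEUROD2, PPP1R1B, PNMT, IKZF3, ZPBP2 and GSDMB) did not pass the filter. ERBB2 at 3.96 and GRB7 at 4.60 exceeded each of them.

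Abemaciclib raised 3 of the 7 neighbours tested in MDA-MB-453 in both comparisons. PGAP3 rose from 18.3 to 33.6 CPM (0.96 ± 0.20, adjusted p = 0.000148) and ORMDL3 from 50.4 to 71.7 CPM (0.59 ± 0.13, adjusted p = 0.00043). MIEN1 rose from 148.5 to 179 CPM (0.35 ± 0.10, adjusted p = 0.00584), a call lost without DMSO replicate 2 (0.28, adjusted p = 0.0694). With fulvestrant present their values were 1.56, 0.99 and 0.46, and in neither comparison was a neighbour called lower. The count of 3 of 7 stands beside 36% and 36.6% of all genes called. The list medians were 0.26 and -0.09, against -0.0019 and 0.0066 over all genes, and with fulvestrant present the 4 that were not called had values of -0.20 (CDK12) to -0.09 (MED1). In MDA-MB-231, 3 of the 8 tested were called for abemaciclib, with FBXL20 (1.2 ± 0.39) and MIEN1 (0.57 ± 0.16) higher and CDK12 (-0.35 ± 0.12) lower. In the presence of fulvestrant TCAP (2.00 ± 0.74), PGAP3 (1.49 ± 0.57) and ORMDL3 (1.08 ± 0.25) were higher. Over all genes 33.7% and 36.1% were called. TCAP passed the filter on low counts in this line only through the combination group, so the filter itself favoured its rise. ERBB2 shares 571 exonic bases with MIEN1 and 144 with PGAP3, which are both on the opposite strand (chr17:39728496-39730532 and chr17:39671122-39696797). The strand setting used for counting is not given in the sources used here, so the separation of reads from ERBB2 and MIEN1 was not tested.

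**Figure D5:**
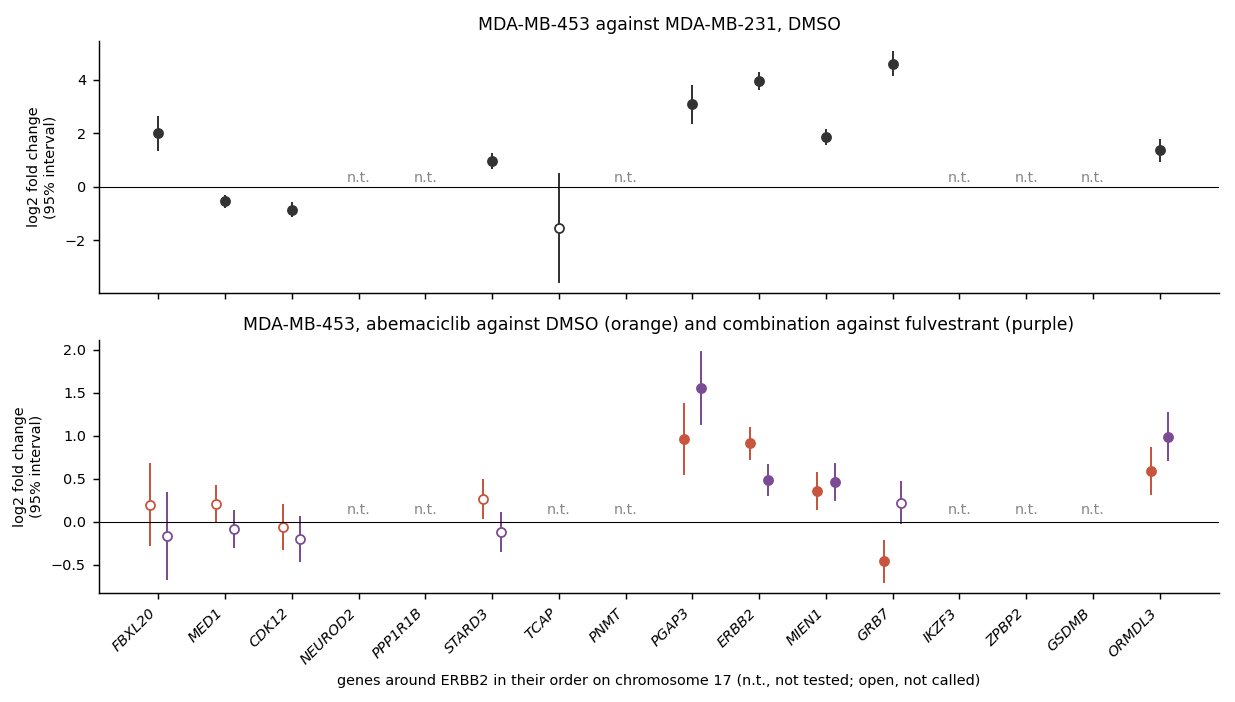
Log2 fold changes, with 95% intervals, of ERBB2, GRB7 and 14 neighbours in their order along chromosome 17, between the lines under DMSO (top) and with abemaciclib in MDA-MB-453 (bottom). ERBB2 and GRB7 were the highest of the block between the lines, at 3.96 and 4.60, and lay on opposite sides of 0 for abemaciclib against DMSO, at 0.91 and -0.46.

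Further genes of the pathway were taken from lists. Of 6 further ligands, only NRG2, a neuregulin, could be tested in MDA-MB-231. It measured 1.82 CPM under DMSO and 7.80 CPM with abemaciclib (2.09 ± 0.58, adjusted p = 0.00444). Under fulvestrant it had the same 1.82 CPM, and under the combination 5.76 CPM (1.63 ± 0.59, adjusted p = 0.026). That second call was lost without fulvestrant replicate 2 or 3 or combination replicate 1 or 2 (adjusted p up to 0.0931). NRG2 passed the filter on low counts only through the groups with abemaciclib, so the filter itself favoured a rise. In MDA-MB-453 the 1 tested, NRG3, was called in no treatment comparison. In the shedding machinery, which releases ligands from the membrane, 3 of 5 genes rose in MDA-MB-231 in both comparisons and none fell, with a list median of 0.95 for abemaciclib against -0.0005 over all genes, of which 33.7% were called without fulvestrant and 36.1% with it. These were the inactive rhomboids RHBDF1 (0.95 ± 0.38, adjusted p = 0.0496) and RHBDF2 (1.21 ± 0.26, adjusted p = 0.000294), partners of ADAM17, and TIMP3 (2.37 ± 0.38, adjusted p = 2.75e-06), an inhibitor of ADAM17. The proteases ADAM10 and ADAM17 themselves were not called in this line. The RHBDF1 call for abemaciclib was lost in 8 of the alternatives, with adjusted p up to 0.157. RHBDF1 also rose in MDA-MB-453 (0.81 ± 0.18, adjusted p = 0.000473), where RHBDF2 fell (-1.01 ± 0.26, adjusted p = 0.00156), and the RHBDF2 response differed between the lines (-2.21 ± 0.38, adjusted p = 1.4e-05). With fulvestrant present, where 36.6% of all genes were called, 3 of the 4 tested in MDA-MB-453 rose, namely RHBDF1 (1.48 ± 0.19), ADAM17 (0.48 ± 0.16) and ADAM10 (0.47 ± 0.14).

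Among 10 adaptors, of which 9 were tested in each line, the abemaciclib comparison raised 3 in MDA-MB-231, raised 2 in MDA-MB-453 and lowered none (list medians 0.40 and 0.39, against -0.0005 and -0.0019 over all genes). These counts are no higher a share than the 33.7% and 36% of all genes called. SHC1, which links receptors to RAS signalling, rose in MDA-MB-231 from 91.3 to 162 CPM (0.82 ± 0.14, adjusted p = 9.05e-06), GAB2 rose by 1.07 ± 0.27 and GRB10 by 0.60 ± 0.16. In MDA-MB-453, SOS2, an activator of RAS, rose by 1.09 ± 0.20 and GRB10 by 0.93 ± 0.28. With fulvestrant present, SHC1 alone rose in MDA-MB-231 (0.54 ± 0.14, adjusted p = 0.00165), whereas MDA-MB-453 had a rise of SHC1 (0.43 ± 0.17) and falls of GRB2 (-0.23 ± 0.08) and SOS1 (-0.50 ± 0.19). These last 3 calls had adjusted p from 0.0273 to 0.0451 and were each lost in 4 to 6 of the alternatives.

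The negative regulators moved in both directions. In MDA-MB-231, 2 of 10 tested rose and 1 fell (median -0.01), and in MDA-MB-453, 5 of 12 rose and 1 fell (median 0.51), beside 33.7% and 36% of all genes called. ERRFI1, an inhibitor that binds EGFR and is made in response to its signalling, rose from 49.8 to 74.2 CPM in MDA-MB-231 (0.58 ± 0.16, adjusted p = 0.00402) and from 14.3 to 26.4 CPM in MDA-MB-453 (0.96 ± 0.24, adjusted p = 0.0015). Without DMSO replicate 1 the first of these was 0.38 (adjusted p = 0.0764), and without abemaciclib replicate 3 the second was 0.60 (adjusted p = 0.0681). LRIG1, which promotes loss of ERBB receptors, rose in MDA-MB-453 from 39.2 to 57.7 CPM (0.64 ± 0.15, adjusted p = 0.000418). RNF41, a ligase for ERBB3, rose in both lines (0.51 ± 0.20 and 0.41 ± 0.16), with calls lost in 5 of the alternatives in each, and the phosphatase PTPN2 fell in both (-0.86 ± 0.17 and -1.18 ± 0.23). ERRFI1, RNF41 and PTPN2 were also the 3 called in MDA-MB-231 with fulvestrant present, in the same directions. In MDA-MB-453, LRIG1 (1.01 ± 0.14), RNF41 and SOCS5 rose and PTPN2 fell with fulvestrant present.

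The genes most similar to TGFA over the 12 MDA-MB-231 libraries were DSTN, DCBLD2, TUBA1A, MT-CO2 and GRINA, with Pearson r of log2 CPM from 0.983 to 0.99. For ERBB2 over the 12 MDA-MB-453 libraries they were ADAM15, ERGIC1, C6orf132, SLC39A6 and GNAS, with r from 0.974 to 0.989. They are the nearest of 8031 and 7923 genes averaging at least 10 CPM, and with 4 treatment groups behind each r they describe a shared pattern and were not tested. MT-CO2 belongs to the mitochondrial transcripts whose share rose with abemaciclib. With all of these left out, the abemaciclib values were 2.72 for TGFA and 1.32 for EREG in MDA-MB-231, and 0.92 for ERBB2, 0.53 for ERBB3 and -0.45 for GRB7 in MDA-MB-453, and each was called.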

How the data were processed

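Raw gene counts were used from 24 libraries of 3′ RNA-seq (single-end, 100 bp). The authors aligned reads to hg38 with STAR and counted them with featureCounts on GENCODE genes, and deposited whole-number counts without normalisation. Strand setting, multimapping reads and duplicates are not given in the sources used here. Of the deposited rows, 1 named no gene and held 0 counts. The analysis used edgeR 4.0.16 in R 4.3.3 (filterByExpr, TMM, quasi-likelihood tests, no replicate block), within each line and, for comparisons of lines, over all libraries, and the code was tested on simulated data. Alternatives were DESeq2 1.42.0, its size factors, no filter, omission of mitochondrial transcripts, the compared groups alone, a replicate block and omission of each library. Over genes with at least 20 counts, no replicate pair agreed within sampling noise. Same-numbered libraries did not deviate together, so numbers were not treated as pairs. Members and lists were chosen with earlier results of these data known. All members are named, and of each list the genes called with the largest changes, plus the 5 genes of most similar pattern; further list genes were named after their values were seen. Positions came from GENCODE version 44.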

Additional observations from a re-analysis of the deposited data

Results flagged for a closer look

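Responses to abemaciclib that differed between the lines, or between the absence and presence of fulvestrant, concerned 4 genes. The ERBB3 response to abemaciclib was lower in MDA-MB-453 than in MDA-MB-231 (log2 difference -4.39, adjusted p = 0.0247, edgeR), where MDA-MB-231 started from 0 counts. The TGFA response to the combination against fulvestrant was lower in MDA-MB-453 (-3.47, adjusted p = 0.00236), where counts near the floor went from 16 to 7 while TGFA rose in MDA-MB-231, and GRB7 responded in the positive direction relative to MDA-MB-231 (2.85, adjusted p = 0.000339). Within MDA-MB-453, fulvestrant changed the abemaciclib response of ERBB2 by -0.42 (adjusted p = 0.0431) and that of GRB7 by 0.68 (adjusted p = 0.0124). The libraries on which these calls rest are given with each result above, except for the GRB7 difference between lines.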

How the results depend on the processing

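Every call for TGFA, EREG and HBEGF within MDA-MB-231, and for ERBB2, ERBB3 and GRB7 for abemaciclib against DMSO in MDA-MB-453, kept its direction and its side of the threshold under all alternatives run. With the replicate block, 1 member rather than 2 was called for the interaction in MDA-MB-453, since ERBB2 had the same -0.42 at an adjusted p of 0.0584, and AREG between the lines was -1.54 (adjusted p = 0.0543); the block changed no other call. Same-numbered libraries had correlations of deviations of at most 0.058 and 0.057 in the respective lines, so the numbers did not pair the samples. Leaving out libraries, the members called ranged from 0 to 1 for fulvestrant and for the interaction in MDA-MB-231, for fulvestrant and for the combination against abemaciclib in MDA-MB-453 and for the abemaciclib difference between lines, and from 0 to 2 for the interaction in MDA-MB-453.

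Direction turned only in values that were not called. NRG1 in MDA-MB-231 (combination against fulvestrant) was 0 without the filter and without mitochondrial transcripts, and -0.11 to 0.09 leaving out libraries. ERBB3 in MDA-MB-453 (fulvestrant) was 0 with DESeq2, its size factors in edgeR and no mitochondrial transcripts, 0.01 with no filter and with the compared groups alone, and -0.08 to 0.07 leaving out libraries. With the block, AREG in MDA-MB-453 (combination against abemaciclib) was -0.04, and without mitochondrial transcripts the GRB7 difference between lines for abemaciclib was -0.02. Leaving out libraries in MDA-MB-231 gave EGFR -0.18 to 0 for fulvestrant and -0.02 to 0.19 for the combination against abemaciclib, where AREG had -0.38 to 0.11 and NRG1 -0.16 to 0, and interactions of -0.22 to 0.13 for ERBB2 and -0.04 to 0.52 for AREG. In MDA-MB-453 it gave AREG -0.01 to 1.2 for abemaciclib, -0.91 to 0.25 for the combination against fulvestrant and -0.68 to 0.38 against abemaciclib, EGFR -0.24 to 0.92 and -0.25 to 0.66 for the last 2, and an ERBB3 interaction of 0 to 0.14. Between lines it gave GRB7 -0.24 to 0.61 for abemaciclib and ERBB2 -0.29 to 0.06 for the combination against fulvestrant. The cause of these shifts was not tested. 

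Over all genes in MDA-MB-231, calls for the combination against abemaciclib numbered 75 with DESeq2, 49 without the filter, 30 with the compared groups alone, 9 without mitochondrial transcripts, 5 with DESeq2 size factors and 0 to 96 leaving out libraries, rather than 3. The interaction gave 127 with DESeq2, 132 without the filter, 6 with the block and 2 to 449 leaving out libraries, rather than 14, and fulvestrant 14 without the filter rather than 0. In MDA-MB-453, fulvestrant gave 334 with DESeq2, 269 without the filter and 5 to 786 leaving out libraries, rather than 156, the combination against abemaciclib 83 to 518 rather than 273 and the interaction 191 to 873 rather than 421. Genes of the lists were rerun as an addition made after the data were seen: 881 values kept their call, 93 lost it and 0 turned direction.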
